A study of Rattus norvegicus with 9 samples.

Results

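The transcripts of 8 enzymes that make the cofactor for phenylalanine hydroxylation or break down tyrosine were followed in the livers of 9 rats. The members were taken by gene symbol, with earlier results of these data known: Gch1, Pcbd1 and Qdpr on the cofactor side, and Tat, Hpd, Hgd, Gstz1 and Fah on the tyrosine side. All 8 were found among the 32883 genes of the deposited tables, and all 8 were among the 14089 genes with enough counts to be tested. The study treated rats with acute-on-chronic liver failure (ACLF), a sudden collapse of a chronically diseased liver, with an extracorporeal blood circuit. The libraries were bulk polyadenylated RNA from liver tissue of 3 groups with 3 rats each.

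The Normal group held healthy male Sprague-Dawley rats aged 8 to 11 weeks, for which neither surgery, nor LPS, nor a circuit is described. Rats of both ACLF groups, of the same sex, strain and age, had their bile duct ligated for 21 days and then received 0.25 mg/kg lipopolysaccharide (LPS), a bacterial endotoxin, into the peritoneum. Their blood was passed through a circuit for 2 h, starting 1 h after LPS, and the livers were taken 24 h after LPS. In the Empty group the circuit held no active component. In the UTOpiA group it held a column of cellulose acetate beads, which takes up granulocytes and monocytes, followed by alginate-encapsulated hepatocyte-like cells made from human induced pluripotent stem cells. These human cells were housed in the circuit, outside the livers that were sequenced, and the paper lists their possible migration among the points still unknown. Livers came from rats still alive at the time of harvest, so the rats that had died earlier are not represented in either ACLF group. The paper reports very high early mortality with the empty circuit and the best survival with UTOpiA. Selection by survival was therefore probably stronger in the Empty group, and its part in the differences between UTOpiA and Empty livers was not tested.

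In hepatocytes, phenylalanine is hydroxylated to tyrosine with tetrahydrobiopterin (BH4) as the cofactor. BH4 is made from GTP, with the step run by Gch1 as the first, and after each round of hydroxylation it is restored by Pcbd1 and Qdpr. Tyrosine is then broken down in a fixed order: Tat removes its amino group, Hpd turns the product into homogentisate, Hgd opens the ring of homogentisate, Gstz1 isomerises maleylacetoacetate, and Fah splits fumarylacetoacetate into fumarate and acetoacetate. The liver is the main site of this route, and inherited loss of Fah, Tat, Hpd or Hgd causes the tyrosinaemias and alkaptonuria.

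The libraries held between 14241172 and 17321677 gene counts. For single genes, livers are compared below in CPM, counts scaled to a common library size with the trimmed mean of M-values (TMM). Genes are compared with each other, and summed within a liver, in TPM, which also correct for transcript length but are not TMM-scaled. All groups expressed the 8 hepatocyte markers, whose summed level was 153812 to 169265 TPM in Normal, 53630 to 78816 TPM in Empty and 59680 to 76760 TPM in UTOpiA livers. Between Empty and Normal, markers are given as lower or higher at an edgeR adjusted p under 0.05 and a fold above 2. By this rule 11.1% of all tested genes were lower and 20.7% higher. Of the 8 hepatocyte markers, 4 were lower (Alb, Apoa1, Cps1 and Hnf4a) and 1 was higher (Fgb), while 6 had an estimate below 0. Markers of other cells were higher in Empty than in Normal livers for all 6 cholangiocyte genes, 4 of 4 tested neutrophil genes, 4 of 5 stellate cell genes, 4 of 6 macrophage genes, 3 of 4 T cell genes and 2 of 3 erythroid genes, while 0 of 2 B cell genes and 0 of 4 endothelial genes were. The remaining erythroid gene, Slc4a1, and 1 endothelial gene, Kdr, were lower (log2 −1.44 and −1.54). The summed cholangiocyte markers were 14.5 to 24.8 TPM in Normal, 304 to 610 TPM in Empty and 128 to 389 TPM in UTOpiA livers, and the neutrophil markers 2.15 to 5.24, 178 to 1091 and 172 to 500.5 TPM. Albumin took 13.3% to 14.9% of counts in Normal livers, 1.65%, 3.91% and 1.58% in Empty rats 1 to 3, and 3.59%, 1.54% and 3.31% in UTOpiA rats 1 to 3. Since these are whole-tissue samples, fewer hepatocytes in a piece of liver and less of a transcript in each hepatocyte cannot be told apart, and the part of the cell mixture in the results below was not tested.

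In normal livers the enzymes of the route stood at very different levels. Hpd was the most abundant at 2094 ± 259 TPM (mean ± SD, n = 3 here and below), followed by Tat at 736 ± 263 and Fah at 534 ± 24. Pcbd1 at 443 ± 24.1 and Gstz1 at 442 ± 22.5 could not be separated, and the wide range of Tat, from 440 to 942 TPM, took in Fah, Pcbd1 and Gstz1. Qdpr at 327 ± 41.4 and Hgd at 245 ± 26.6 came next, and Gch1 was lowest at 71.6 ± 6.43 TPM. In Empty livers Tat, at 1025 ± 409 TPM, stood level with Hpd at 1019 ± 413, while Gstz1 at 87.6 ± 48.0, Hgd at 109 ± 83.7 and Gch1 at 56.6 ± 17.4 were the lowest and overlapped. In UTOpiA livers Hpd was again highest at 1489 ± 590 TPM, Tat followed at 607 ± 146, and Gstz1 at 119 ± 44.4 averaged below Hgd at 249 ± 83.0. The 8 members together amounted to 4850 to 4964 TPM in Normal livers, to 2370, 4255 and 2310 TPM in Empty rats 1 to 3 and to 4517, 2814 and 2780 TPM in UTOpiA rats 1 to 3. Normal livers thus lay within a narrow span, and both ACLF groups ranged widely below it.

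**Figure D1:**
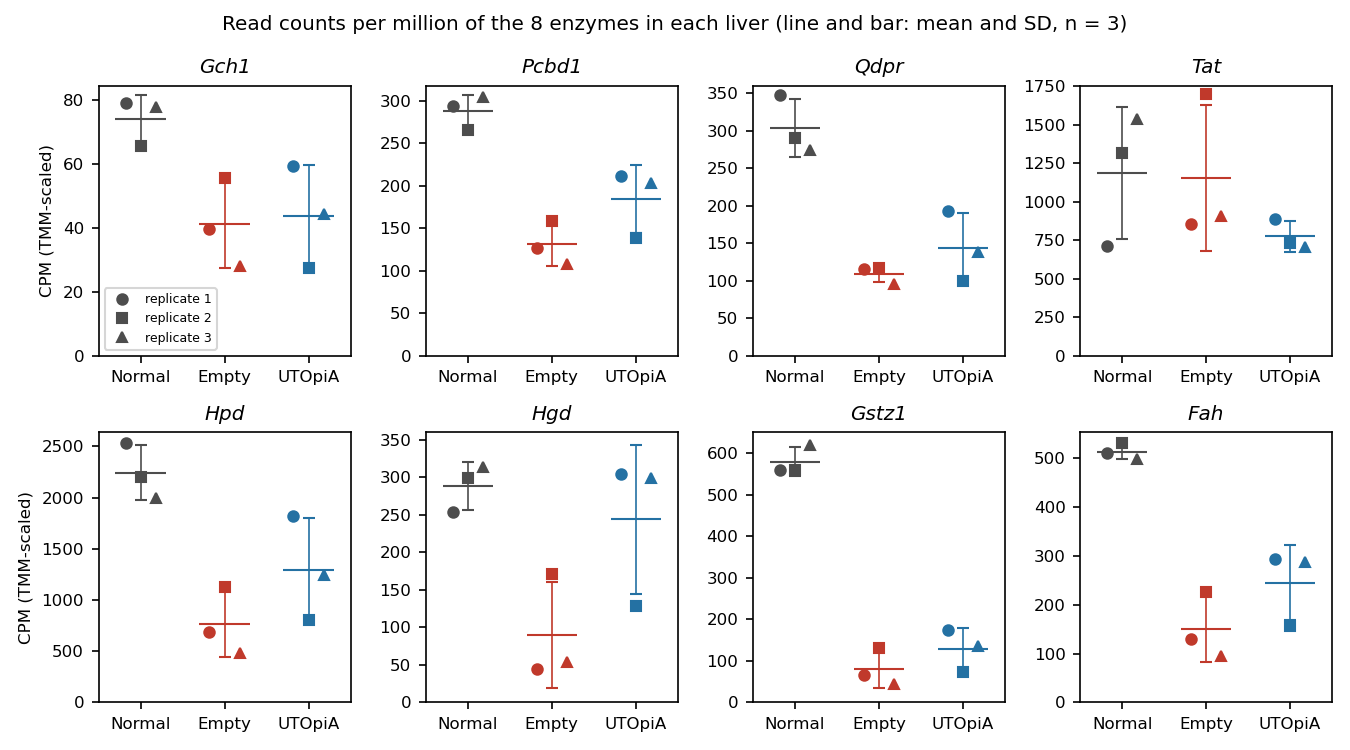
Level of each of the 8 enzymes in each of the 9 livers, in TMM-scaled CPM on a linear axis from 0, with 1 point for a rat, a line at the group mean and a bar for the SD (n = 3). For 7 of the 8 genes all Empty livers lay below all Normal livers, Tat being the exception, and UTOpiA livers overlapped Empty livers for every gene.

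Gch1, GTP cyclohydrolase, commits GTP to BH4 and is the step usually taken as limiting for the cofactor. The gene (ENSRNOG00000011039) lies on chromosome 15 from 23934585 to 23969011, minus strand, in the coordinates of the deposited tables. Its level was 79.2, 65.5 and 77.7 CPM in Normal rats 1 to 3, 39.6, 55.6 and 28.3 CPM in Empty rats, and 59.5, 27.4 and 44.2 CPM in UTOpiA rats. Every ACLF liver was below every normal liver, and the ACLF groups overlapped. Empty livers were 1.80-fold lower than Normal ones (log2 fold change −0.85, SE 0.30, edgeR adjusted p = 0.0430), which missed the fold of 2 required for a call, and the adjusted p stayed under 0.05 in only 5 of 15 alternative settings. Without Empty rat 2 the difference was −1.13 (adjusted p = 0.0142), past the call rule. The difference between UTOpiA and Empty was 0.09 on the log2 scale (95% interval −0.59 to 0.77, adjusted p = 0.948), and its sign turned under other settings.

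Pcbd1, pterin-4a-carbinolamine dehydratase, takes water off the used cofactor and also binds the transcription factor HNF1 as its dimerisation partner. The gene (ENSRNOG00000000566) is on chromosome 20 from 30690810 to 30696476, plus strand. Normal rats had 293, 266 and 304 CPM, Empty rats 127, 159 and 108 CPM and UTOpiA rats 212, 138 and 203 CPM. All ACLF livers were below all normal livers, with Empty rat 2 above UTOpiA rat 2 as the only crossing between the ACLF groups. The fall from Normal to Empty was 2.19-fold (log2 −1.13, SE 0.22, adjusted p = 0.00259). UTOpiA livers lay 1.40-fold above Empty ones (95% interval 1.00 to 1.96), with an unadjusted p of 0.0488 in edgeR and an adjusted p of 0.481.

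Qdpr, quinonoid dihydropteridine reductase, returns the cofactor to its active form with NADH. The gene (ENSRNOG00000003253) is on chromosome 14 from 70164650 to 70178284, plus strand. The level was 347, 291 and 274 CPM in Normal rats, 116, 117 and 96.0 CPM in Empty rats, and 192, 100.3 and 139 CPM in UTOpiA rats. Empty livers formed a tight group (TPM coefficient of variation 5.37%), the least variable of the 8 members there, and UTOpiA rat 2 fell inside it. Qdpr was 2.77-fold lower in Empty than in Normal livers (log2 −1.47, SE 0.24, adjusted p = 0.00122). It was also called lower in UTOpiA than in Normal livers, by 2.11-fold (log2 −1.08, SE 0.24, adjusted p = 0.00711). The adjusted p of that difference was under 0.05 in all 15 alternative settings, but the fold was under 2 in 6 of them, among them without Normal rat 1 (−0.97) and without UTOpiA rat 2 (−0.87).

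Tat, tyrosine aminotransferase, starts tyrosine breakdown and is the classical liver gene induced by glucocorticoids. The gene (ENSRNOG00000016348) is on chromosome 19 from 41675355 to 41686229, minus strand in the deposited tables. Tat was 712, 1314 and 1539 CPM in Normal rats, 855, 1700 and 909 CPM in Empty rats, and 891, 730.3 and 704 CPM in UTOpiA rats. It was the only member whose Empty livers overlapped the Normal livers, and Empty rat 2 had the highest value of all 9. Empty and Normal livers differed by −0.04 on the log2 scale (SE 0.36, 95% interval −0.85 to 0.76, adjusted p = 0.934), so differences up to 1.80-fold lower or 1.70-fold higher lay within the interval. On the TPM scale the same difference was 0.48 (limma adjusted p = 0.291), where the median of all genes itself moved up by 0.39, so no direction is given for Tat between these groups. UTOpiA livers were 1.49-fold below Empty livers (log2 −0.58, SE 0.36, adjusted p = 0.616; −0.18 without Empty rat 2 and −0.75 without Empty rat 1), and Tat was the only member with a negative difference in that comparison.

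The promoter of Tat is shown because it is the member that stood apart. The RefSeq window of 250 bases before the start, chr19:54856354-54856603 of GRCr8, plus strand in that build, is written with the CCAAT box (CCAAT, or ATTGG on the other strand) in capitals.
Tat: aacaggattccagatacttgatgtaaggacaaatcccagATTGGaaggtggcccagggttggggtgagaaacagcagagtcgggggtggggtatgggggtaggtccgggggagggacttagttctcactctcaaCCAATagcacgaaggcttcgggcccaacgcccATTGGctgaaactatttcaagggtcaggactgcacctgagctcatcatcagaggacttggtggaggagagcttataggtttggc
It held 3 CCAAT boxes, a motif found at least once in 34.0% of 33469 rat promoter windows of this length. No window of the 8 members held TATAAA, against 12.9% of all windows. The glucocorticoid receptor motif AGAACA, searched on both strands, was found in the Tat window 0 times and in 17.5% of all windows. Among the members it was present for Qdpr alone. Only these 250 bases were searched, so the 0 hits say nothing about receptor sites farther from the start of Tat.

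Hpd, 4-hydroxyphenylpyruvate dioxygenase, makes homogentisate and is the enzyme blocked by nitisinone. The gene (ENSRNOG00000001338) is on chromosome 12 from 38828444 to 38839969, plus strand. It stood at 2531, 2204 and 1992 CPM in Normal rats, 689, 1127 and 487 CPM in Empty rats, and 1821, 804 and 1247 CPM in UTOpiA rats. Normal livers were above all ACLF livers, and Empty rat 2 exceeded UTOpiA rat 2. Hpd fell 2.92-fold from Normal to Empty (log2 −1.55, SE 0.39, adjusted p = 0.00904). The UTOpiA livers averaged 1.68-fold above Empty (95% interval 0.932 to 3.03, adjusted p = 0.530) and 1.74-fold below Normal (adjusted p = 0.123).

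Hgd, homogentisate 1,2-dioxygenase, carries out the ring-opening step lost in alkaptonuria. The gene (ENSRNOG00000002701) is on chromosome 11 from 65983221 to 66034573, minus strand. Hgd was 253, 299 and 313 CPM in Normal rats, 44.3, 171 and 54.1 CPM in Empty rats, and 304, 129 and 299 CPM in UTOpiA rats. UTOpiA rats 1 and 3 lay within the normal range, UTOpiA rat 2 lay between Empty rats 2 and 3, and Empty rat 2 was more than 3 times the other Empty livers. From Normal to Empty the fall was 3.22-fold (log2 −1.68, SE 0.53, adjusted p = 0.0264), but leaving out Normal rat 2, Normal rat 3, Empty rat 1 or Empty rat 3 gave adjusted p = 0.0610, 0.0644, 0.0680 and 0.0841. Without Empty rat 2 the difference was −2.56 on the log2 scale (adjusted p = 0.000692). Hgd had the largest difference of the 8 members between UTOpiA and Empty, 2.72-fold (log2 1.44, SE 0.52, 95% interval 1.20 to 6.17 as a ratio), with an unadjusted edgeR p of 0.0222 and an adjusted p of 0.425. Without Empty rat 2 it was 2.31 on the log2 scale with adjusted p = 0.0455. Against Normal livers, UTOpiA livers differed by −0.24 (95% interval −1.40 to 0.92, adjusted p = 0.734).

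The Hgd promoter is shown because its gene had the largest estimate between the circuits, not called, and its window was the poorest in G and C of the 8. The window, chr11:76643768-76644017 of GRCr8, minus strand, has the C/EBP motif TTGNGCAA (either strand) and the CCAAT box in capitals.
Hgd: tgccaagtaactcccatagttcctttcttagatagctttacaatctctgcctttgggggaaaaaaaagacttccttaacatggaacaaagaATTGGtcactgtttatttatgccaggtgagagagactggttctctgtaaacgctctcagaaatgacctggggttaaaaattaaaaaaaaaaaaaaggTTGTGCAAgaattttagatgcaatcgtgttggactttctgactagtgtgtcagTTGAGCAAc
This window had 38.0% G and C, against a median of 51.2% over all windows and 54.0% to 69.2% in the other members. It held 2 C/EBP motifs, which occur in 2.29% of all windows, and 0 GC boxes (GGGCGG, or CCGCCC on the other strand), which occur in 30.5%. Gch1 and Qdpr were the other members with a C/EBP motif.

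Gstz1, maleylacetoacetate isomerase, is the glutathione-using step of the route and also metabolises dichloroacetate. The gene (ENSRNOG00000047708) is on chromosome 6 from 111176798 to 111187244, plus strand, and shares 121 bases at its start with Pomt2 on the opposite strand, a gene with only 140 to 240 counts per library. Gstz1 was 560, 558 and 620 CPM in Normal rats, 64.9, 132 and 45.4 CPM in Empty rats, and 173, 73.4 and 136 CPM in UTOpiA rats. The lowest normal liver was thus more than 3 times the highest ACLF liver, and the ACLF groups overlapped. Its 7.17-fold fall from Normal to Empty was the largest of the 8 members (log2 −2.84, SE 0.44, adjusted p = 0.000887), and only 1.43% of tested genes had a lower log2 fold change. UTOpiA livers were 4.54-fold below Normal (log2 −2.18, SE 0.42, adjusted p = 0.00386) and 1.58-fold above Empty (95% interval 0.835 to 2.98, adjusted p = 0.612).

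The Gstz1 promoter is given as that of the member with the largest fall. In the window chr6:112525356-112525605 of GRCr8, plus strand, the GC box is in capitals.
Gstz1: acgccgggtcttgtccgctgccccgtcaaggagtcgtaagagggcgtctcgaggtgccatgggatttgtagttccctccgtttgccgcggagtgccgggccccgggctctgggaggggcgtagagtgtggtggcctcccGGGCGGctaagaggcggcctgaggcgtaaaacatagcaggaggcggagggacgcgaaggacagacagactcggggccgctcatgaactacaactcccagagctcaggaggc
It had 65.6% G and C, a single GC box and no CCAAT box, HNF1 or C/EBP motif. GC boxes were present in 6 of the 8 member windows, up to 5 times for Fah. The HNF1 motif GTTAAT, searched on both strands, was found for Pcbd1 and Hpd, and in 6.45% of all windows.

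Fah, fumarylacetoacetate hydrolase, closes the route, and its loss causes tyrosinaemia type I through the build-up of fumarylacetoacetate. The gene (ENSRNOG00000013223) is on chromosome 1 from 146713676 to 146736261, minus strand. Normal rats had 511, 531 and 499.7 CPM, the narrowest spread of the 8 members relative to the mean, Empty rats 130.3, 227 and 94.8 CPM, and UTOpiA rats 293, 156 and 288 CPM. All ACLF livers were below all normal livers, and UTOpiA rat 2 fell between Empty rats 1 and 2. Fah fell 3.41-fold from Normal to Empty (log2 −1.77, SE 0.35, adjusted p = 0.00286). UTOpiA livers were 1.63-fold above Empty (95% interval 0.961 to 2.77, adjusted p = 0.511) and 2.09-fold below Normal (log2 −1.06, SE 0.34, adjusted p = 0.0337). That adjusted p was above 0.05 in 8 of 15 alternative settings, among them without Normal rat 1, 2 or 3 and without UTOpiA rat 2 (0.0766, 0.0850, 0.0736 and 0.0948).

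Set side by side, the comparison of Empty with Normal livers asked what ACLF with an inactive circuit did to the route. Of the 8 members, 6 fell past the call rule (edgeR adjusted p under 0.05 and a fold above 2), where 11.1% of all tested genes did so, and 0 rose, where 20.7% of all genes did. With the adjusted p alone, 7 members were lower, against 21.5% of all genes. In 7 members every Empty liver was below every Normal liver, a pattern held by 28.8% of tested genes, and in 0 members was it the reverse, as in 32.4% of genes. Over the 8 members the median difference was −1.51 on the log2 scale, beside 0.04 over all genes tested. The order of the falls ran from Gstz1 over Fah, Hgd, Hpd and Qdpr to Pcbd1, with Gch1 below the fold required and Tat without a detectable difference.

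The comparison of UTOpiA with Empty livers addressed how the active circuit differed from the empty one among ACLF rats alive at harvest. The part of unequal survival in it was not tested. edgeR called 0 of 8 members in either direction, as it called 0% of all 14089 genes, and DESeq2 and limma also called 0 members. Over all genes DESeq2 called 53 higher and 71 lower with UTOpiA, and limma called 3 higher without a filter on TPM and 0 with it. At an unadjusted p under 0.05, edgeR had 2 members, Hgd and Pcbd1, both higher with UTOpiA, and 1456 of all genes. The estimates were above 0 for 7 members, with a median of 0.57 beside 0.00 over all genes, and the groups overlapped in all 8 members, while 6.15% of all genes had all UTOpiA livers above all Empty livers and 5.97% had them all below. In this comparison the median was 0.48 for the hepatocyte markers, −0.59 for cholangiocyte and −0.64 for neutrophil markers, with 0 called. The other marker lists had medians from −0.42 to 0.31, and the part of the cell mixture was not tested. On the CPM scale Empty rat 2 was the highest Empty liver for all 8 members, and UTOpiA rat 2 was the lowest UTOpiA liver for all members but Tat, while on the TPM scale UTOpiA rat 3 was the lowest for Pcbd1 and Qdpr too. Empty rat 2 and UTOpiA rat 2 also had the highest and the lowest albumin share of the 6 ACLF livers, and the part of this in the result was not tested. At this number of rats and spread, the intervals above leave room for a difference of up to 6.17-fold for Hgd, 3.03-fold for Hpd and 2.98-fold for Gstz1, so a missing call does not show that the circuits acted alike.

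Against Normal livers, the UTOpiA livers had 3 members called lower, Qdpr, Gstz1 and Fah, where 6.81% of all tested genes were, and 0 called higher, where 18.2% were. With Pcbd1, 1.56-fold lower (adjusted p = 0.0403, under 0.05 in only 5 of 15 alternative settings), 4 members passed the adjusted p alone, as 16.2% of all genes did in this direction. In 6 members all UTOpiA livers were below all Normal livers, against 26.1% of all genes, the exceptions being Tat and Hgd, and in 0 members were they all above, against 30.8%. The median log2 fold change was −0.78, beside 0.05 over all genes. This comparison shares the Normal livers with that of Empty against Normal and the UTOpiA livers with that of UTOpiA against Empty, so the values of the members in the 3 comparisons are given side by side and not as independent results.

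**Figure D2:**
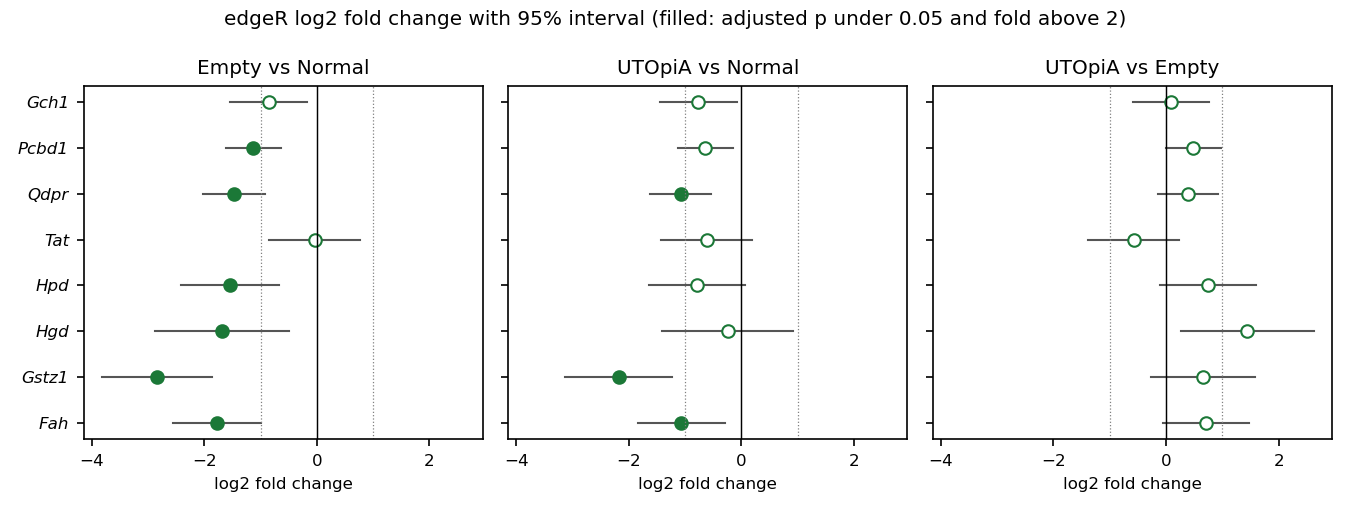
Log2 fold change of each of the 8 enzymes with its 95% interval (edgeR) in the 3 comparisons, with filled points for genes called at an adjusted p under 0.05 and a fold above 2. In Empty against Normal 6 genes were called, in UTOpiA against Empty 0, and in UTOpiA against Normal 3, with Gstz1 the lowest in both comparisons with Normal.

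Ratios of TPM between neighbouring enzymes of the route, taken within each liver, do not depend on how the libraries were scaled. Of the 18 differences tested (6 ratios in 3 comparisons), the smallest p that an exact two-sided permutation test of 3 against 3 can give is 0.1, which becomes 0.2 after adjustment, so none could reach 0.05. The ratio of Hpd to Tat was 5.36, 2.53 and 1.95 in Normal rats, 1.21, 0.999 and 0.807 in Empty rats, and 3.08, 1.66 and 2.67 in UTOpiA rats. Empty livers were below all others (exact permutation p = 0.1 against each group), while UTOpiA and Normal livers overlapped (p = 0.7). Tat accordingly made up 30.2% to 37.7% of the members' summed TPM in Empty livers, 15.6% to 24.1% in UTOpiA livers and 9.04% to 19.4% in Normal livers.

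Gstz1 and Hgd act in succession, and Gstz1 was the higher of the pair in all Normal livers and in Empty rat 1, and Hgd in the other ACLF livers. The ratio of Gstz1 to Hgd was 1.99, 1.68 and 1.78 in Normal rats, 1.32, 0.696 and 0.756 in Empty rats and 0.513, 0.512 and 0.410 in UTOpiA rats. All 3 groups were separate, with UTOpiA livers the lowest (exact permutation p = 0.1 in each comparison), the log2 difference of UTOpiA from Normal being −1.93 and that of Empty from Normal −1.03. Between Hgd and Hpd the ratio was 0.0909, 0.123 and 0.143 in Normal, 0.0584, 0.138 and 0.101 in Empty and 0.152, 0.146 and 0.218 in UTOpiA rats, with UTOpiA livers above all others. From Fah to Gstz1 the ratio was 1.24, 1.30 and 1.10 in Normal rats, 2.73, 2.34 and 2.84 in Empty rats and 2.30, 2.90 and 2.88 in UTOpiA rats. It was higher in every ACLF liver than in any normal liver, and the ACLF groups differed by only 0.03 on the log2 scale (exact permutation p = 0.7). On the cofactor side, the ratios of Pcbd1 to Gch1 and of Qdpr to Pcbd1 overlapped between all groups.

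**Figure D3:**
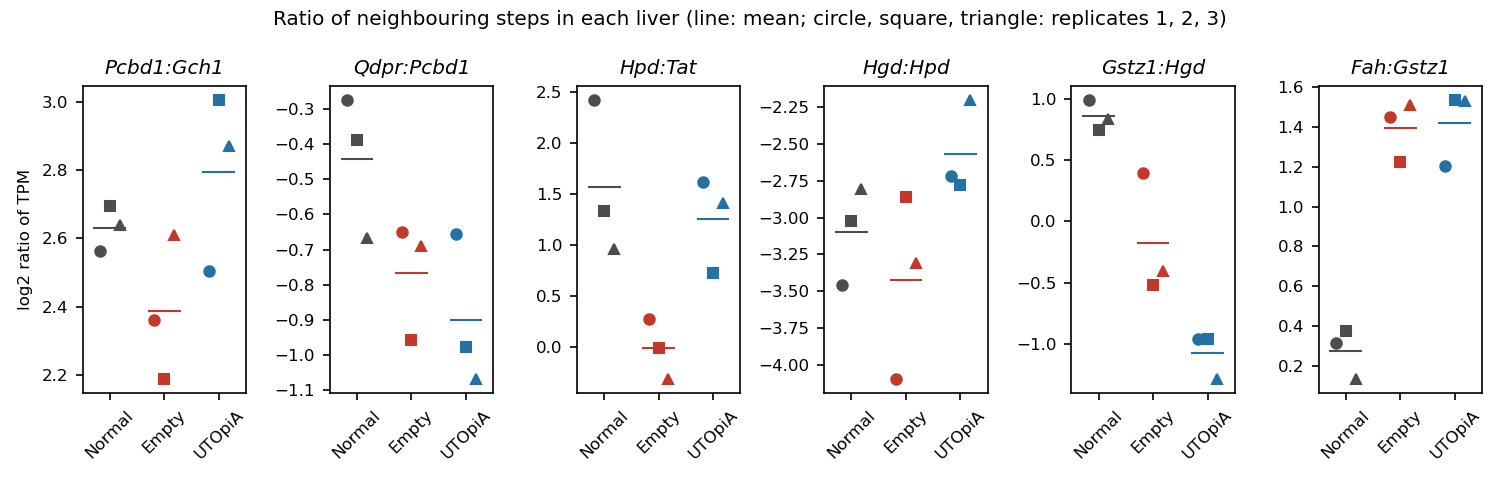
Ratio of TPM between neighbouring enzymes of the route in each of the 9 livers, as a log2 value with its own axis range in each panel, with 1 point for a rat and a line at the group mean. The ratio of Gstz1 to Hgd separates the 3 groups, that of Hpd to Tat sets Empty livers below the rest, and that of Fah to Gstz1 sets Normal livers apart from both ACLF groups.

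The remaining genes around the route moved in both directions in Empty against Normal livers, where 11.1% of all tested genes fell and 20.7% rose. Of 5 other genes of BH4 synthesis and recycling, 2 fell: Gchfr, the feedback regulator of GTP cyclohydrolase (log2 −1.74, adjusted p = 0.00245), and Spr, sepiapterin reductase (−1.09, adjusted p = 0.00698). Pts, which acts between Gch1 and Spr, differed by 0.02 (adjusted p = 0.948). Of 7 other BH4-dependent enzymes 4 were tested. Agmo, the ether lipid monooxygenase, fell (−1.74, adjusted p = 0.00185). Nos2, the inducible nitric oxide synthase, had 0 counts in all Normal livers and was 2.85, 6.22 and 2.74 CPM in Empty livers, at least 15.0-fold higher when 3 counts per library are taken as the floor. In UTOpiA livers Nos2 was 0.195, 0.303 and 0 CPM, below every Empty liver, a pattern held by 5.97% of all tested genes. The edgeR adjusted p between the ACLF groups was 0.194.

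Among 10 other tyrosine and related enzymes, some of them listed only as relatives of enzymes of the route, 6 were tested, of which 4 fell and 1 rose. Ddc, aromatic amino acid decarboxylase, fell most (log2 −3.80, adjusted p = 0.000276), and the Fah-related hydrolases Fahd1 and Fahd2a fell by 2.28 and 1.42. The aspartate aminotransferases split, with mitochondrial Got2 at −1.47 and cytosolic Got1 at 1.31. For the products of Fah, 3 of 6 genes that use or make fumarate and acetoacetate fell, among them Bdh1 (−3.17) and Acat1 (−1.62), and Oxct1, the ketone-using transferase known mainly from tissues outside the liver, rose (2.14, adjusted p = 7.5e-05). Of 7 tested transporters of aromatic and other neutral amino acids, Slc7a8 (3.15) and Slc43a2 (2.34) rose and Slc7a5 fell (−1.07, adjusted p = 0.0126). Slc7a5, the large neutral amino acid transporter LAT1, was 3.89, 6.06 and 8.41 CPM in Empty and 20.1, 12.8 and 14.7 CPM in UTOpiA livers. All UTOpiA livers were thus above all Empty livers, as in 6.15% of all tested genes, with a log2 difference of 1.37 (edgeR adjusted p = 0.211). Its heavy chain partner Slc3a2 lay the other way, at 77.3, 88.2 and 121 CPM in Empty and 38.0, 65.9 and 50.3 CPM in UTOpiA livers. The log2 difference was −0.89 (edgeR adjusted p = 0.293), and 5.97% of all tested genes had all UTOpiA livers below all Empty livers.

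Tat was also set beside genes known to share its hormonal or transcriptional input. Of 10 glucocorticoid-inducible genes, 5 rose and 0 fell in Empty against Normal livers, with a median of 1.61 beside 0.04 over all genes, of which 20.7% rose and 11.1% fell: the metallothioneins Mt2A (9.57) and Mt1 (5.88), Igfbp1 (7.61), Pck1 (3.10), the rate-limiting enzyme of gluconeogenesis, and Zbtb16 (2.26). Sgk1, on the same list, was at −0.80 (adjusted p = 0.0217), below the fold required, and was called lower in UTOpiA against Normal livers (−1.72, adjusted p = 0.00091). Of 9 transcription factors of the Tat gene, 3 fell in Empty livers, Cebpa (−1.69), Foxa2 (−1.59) and Hnf4a (−1.22), and 1 rose, Cebpd (4.58, adjusted p = 0.0002). Cebpb, a further C/EBP factor, was at 0.24 (adjusted p = 0.579), and Nr3c1, the glucocorticoid receptor, at −0.54 (adjusted p = 0.0414). In UTOpiA against Empty livers, edgeR called 0 genes of any of these 7 lists. Against Normal livers, UTOpiA livers had Gchfr, Agmo, Got2, Ddc, Fahd1, Acat1, Bdh1 and Sgk1 called lower, and Got1, Slc43a2, Slc7a8, Oxct1, Pck1, Zbtb16, Igfbp1, Mt1, Mt2A and Cebpd called higher. Of all tested genes, 6.81% were called lower and 18.2% higher in this comparison.

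**Figure D4:**
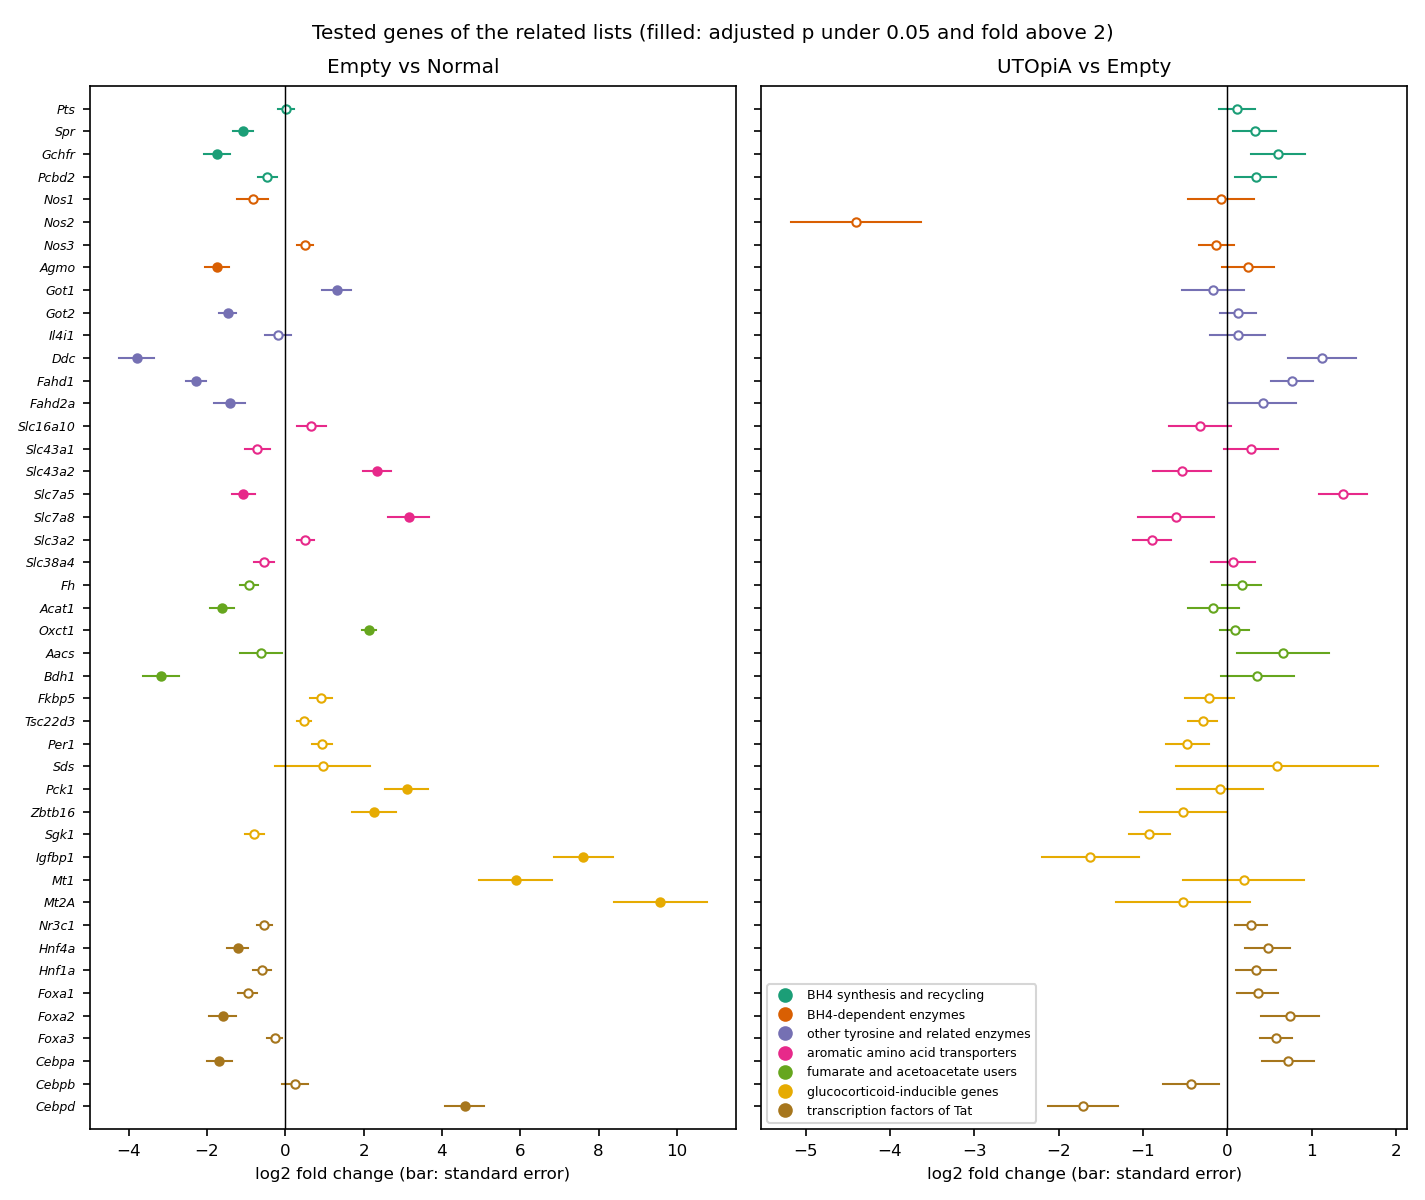
Log2 fold change (edgeR) of genes of the 7 lists around the route with its standard error in Empty against Normal (left) and UTOpiA against Empty (right), with filled points for called genes. In Empty against Normal the glucocorticoid-inducible list lies mostly above 0 and the other tyrosine and related enzymes mostly below. Nos2 is left out there because its Normal livers had 0 counts.

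Profiles over the 9 livers were compared by the root-mean-square difference of log2 CPM, each gene centred on its own mean, among 8034 protein-coding candidates. These distances describe likeness in the same libraries, which share their groups, and carry no test. Fah lay nearest to Aldh7a1 of lysine breakdown (0.0591) and Aldh6a1 of valine breakdown (0.108), and Aldh6a1 was also the nearest gene to Hpd (0.119), followed by Gas2 (0.131). Gstz1 was nearest to Hao1, the peroxisomal glycolate oxidase (0.0771), and to Aadat, an aminotransferase of lysine and kynurenine (0.168). The gene nearest to Hgd was Entpd8 (0.267), where the median distance of Hgd from all candidates was 1.04. Tat was nearest to Ces2c (0.233) and Hsp90ab1 (0.257), where its median distance was 0.575.

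On the cofactor side, Gch1 was most like Tef (0.132). Pcbd1 was most like Rdh10 (0.0931) and Lrba (0.0969), and Rbpms2 (0.113) was in the pair nearest to Qdpr. Among the members themselves Hpd and Fah were closest (0.187) and Tat and Gstz1 farthest apart (1.27). When the 6 ACLF livers alone were used, Aldh7a1 remained nearest to Fah (0.0292) and Hao1 nearest to Gstz1 (0.0838), and Tat was nearest to Bach1 (0.0987) and Irf2bp2 (0.103). Neither of the pair of genes nearest to any of the other 6 members over 9 livers was in its pair over 6.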

How the data were processed

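Whole-liver RNA of 9 rats, 3 per group, was sequenced. The authors deposited a table of counts per gene and a table of TPM. Their methods name HISAT2 and featureCounts, the labels add Trimmomatic and the build rn6, and the methods name a mouse build. Whether counting used strand is not given in the sources used here, and positions are those of the tables. The library kits named in the labels and in the methods also differ.

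From the deposited counts, 14089 of 32883 genes were kept with filterByExpr and tested with the edgeR 4.0.16 quasi-likelihood test (TMM scaling, robust, all 9 libraries, 6 residual degrees of freedom, R 4.3.3). Calls required a fold above 2 and p under 0.05 after Benjamini-Hochberg adjustment across all tested genes. Standard errors were derived from the F statistic. Deposited TPM values served for levels between genes, for ratios and for limma 3.58.1 on log2(TPM + 1). DESeq2 1.42.0, other scalings, filters, a replicate block and omission of each library were alternatives. The procedures were tested on simulated data in which 200 genes were changed 4-fold. At an adjusted p under 0.05, edgeR found 142 of these genes and called 8 unchanged genes. DESeq2 found 159 and called 39 unchanged genes, and limma found 139 and called 7. Libraries of a group differed by more than sampling noise (chi-square per degree of freedom of at least 17.6). Nothing says how tissue pieces were taken, so p-values measure the spread between these livers.

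The named genes were the 8 members, the called genes of 7 pathway lists (with some uncalled ones given for contrast, chosen after their values were seen) and the 2 genes nearest to each member with at least 10 CPM on average. The members and lists were chosen with earlier results of these data known. Motifs were searched in RefSeq windows of 250 bases (GRCr8), for which all 8 members matched. Some list genes and neighbours are not reported here.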

Additional observations from a re-analysis of the deposited data

How the results depend on the processing

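In Empty against Normal livers the number of members called lower was 6, was 4 with limma on TPM, where Pcbd1 and Qdpr missed the fold, and ranged from 5 to 7 when 1 library was left out. In UTOpiA against Normal livers it was 3, was 1 with limma on log2(TPM + 1), on log2(TPM + 0.1) and without a filter on TPM, was 1 with at least 10 counts in every library, and ranged from 1 to 4 with 1 library left out, the lowest value coming from leaving out Normal rat 1 or UTOpiA rat 2. In UTOpiA against Empty livers the number called higher was 0 and ranged from 0 to 1, the single call being Hgd without Empty rat 2. Of the alternative values of the members' fold changes, 310 kept direction and side of an adjusted p of 0.05, without regard to the fold of 2, while 32 lost that p, 4 gained it and 14 turned sign. None of the 14 had an adjusted p under 0.05. Tat in Empty against Normal livers was 0.48 under the 3 limma settings, 0.0623 with at least 10 counts in every library, and −0.43 to 0.18 with 1 library left out. Gch1 in UTOpiA against Empty livers was −0.13 under the 3 limma settings and −0.21 to 0.37 with 1 library left out. Hgd in UTOpiA against Normal livers was −0.44 to 0.0642 with 1 library left out. The cause was not tested in any of these. On TPM, limma moved the median of all genes by 0.39, −0.17 and 0.22 in Empty against Normal, UTOpiA against Empty and UTOpiA against Normal livers, and the share of calls that were higher went from 65.1% to 82.3% in the first of these.

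Same-numbered rats did not deviate together (correlations from −0.183 to 0.0638), so the replicate numbers were not taken as pairs. With the replicate block, 6 members were called lower in Empty against Normal livers, 0 higher in UTOpiA against Empty livers, and 2 lower in UTOpiA against Normal livers. With each library left out, an alternative chosen after seeing the data, the log2 difference of the ratio of Gstz1 to Hgd ranged from −1.07 to −0.61 in UTOpiA against Empty livers and from −1.32 to −0.86 in Empty against Normal livers.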
